A study of Mus musculus with 6 samples.

Results

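The PDGF receptors, the receptor KIT and their ligands were followed in murine tissue around rabbit BMSC-engineered cartilage (BEC). The members are Pdgfra, Pdgfrb, Kit, Pdgfa, Pdgfb, Pdgfc, Pdgfd and Kitl, chosen by name as further kinase targets of axitinib and the ligands of those receptors. All 8 were found among the 48440 genes of the read count table. Axitinib is a small-molecule inhibitor of the VEGF receptors that also acts on PDGF receptors and KIT. BEC was wrapped in an electrospun PCL/collagen membrane that held axitinib at a mass ratio of 0% or 3%, and was placed under the skin of BALB/c nude mice. By the study's methods the mice were male and 6 to 8 weeks old at purchase. Such mice lack a thymus and most mature T cells, while innate immune cells remain. By the methods, samples were taken 12 weeks later together with the entangled murine tissue. Whether RNA of the rabbit BEC was also extracted is not stated, and its part in the counts was not tested. Sequencing covered 3 samples of the 0%-Axitinib group and 3 of the 3%-Axitinib group. The labels call the first group untreated. It was read as the 0%-Axitinib group because the treatment protocol holds only membranes of 0% or 3%. The labels do not say which mouse a sample came from. By the methods each mouse received 2 constructs of 1 group, so samples of a group may share a mouse. Here n counts samples, and the p-values measure the spread between these samples, which may in part be technical and would be too narrow where a mouse is shared.

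PDGF ligands are secreted dimers that bring pairs of receptor chains together, whereupon the kinase domains phosphorylate each other and recruit relay proteins. PDGFRα is typical of fibroblasts and other mesenchymal cells, and PDGFRβ of pericytes and vascular smooth muscle cells, which are drawn to new vessels by the PDGF-BB that endothelial cells release. KIT is the receptor of stem cell factor, the product of Kitl, and mast cells, melanocytes and blood progenitors depend on it. PDGFRα, PDGFRβ and KIT belong to class III of the receptor tyrosine kinases, together with the receptors CSF1R and FLT3.

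Between 9225518 and 18403795 reads per sample were assigned to genes. In the 0%-Axitinib group the totals were 17761968, 16716411 and 18005908 reads for replicates 1, 2 and 3, and in the 3%-Axitinib group they were 9225518, 11686084 and 18403795. A count of 3, taken as the limit of detection for counting error alone, equalled between 0.157 and 0.330 CPM, the unit of read count scaled to library size used throughout. Several libraries stood apart from the others. Replicate 3 of the 0%-Axitinib group carried genes of blood cell precursors, with a summed level of 3312 CPM over 7 such genes against 24.6 and 21.1 CPM in replicates 1 and 2 and at most 17.0 CPM in the 3%-Axitinib group. These 7 genes (Klf1, Alas2, Gata1, Epor, Elane, Mpo and Prtn3) were picked after the data had been seen. Replicates 1 and 3 of the 3%-Axitinib group carried skeletal muscle genes, whose summed level over 24 markers was 20498 and 11257 CPM, against 135 CPM in replicate 2 and 273, 56.3 and 96.5 CPM in the 0%-Axitinib group. Replicate 1 of the 3%-Axitinib group was also the shallowest library. Markers of fibroblasts and macrophages, as a subcutaneous tissue would hold, were abundant in every sample: Col1a1 lay at 3181 CPM or above and Lyz2 at 5168 CPM or above.

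Of the 8 members, 3 were lower in the 3%-Axitinib group by the study's criterion, namely the receptor gene Kit and the ligand genes Kitl and Pdgfb, and none was higher. To meet the criterion, a gene needed a change of 1.5-fold or more and an unadjusted p of 0.05 or less, here from edgeR's quasi-likelihood test. The study does not say whether its P-value was adjusted, and it was read here as unadjusted. Over all 15257 genes tested, 21.2% (3241 genes) met the criterion, 11.7% as lower and 9.54% as higher. The study reported far fewer differing genes, with more of them higher than lower, so the calls here are not those of the study. The same 3 members were those whose 3%-Axitinib samples all lay below all 0%-Axitinib samples, a pattern found in 16.6% of the genes tested (31.3% did not overlap in either direction). All 8 members passed the filter on low counts. Scaling by total counts instead of TMM (trimmed mean of M-values) moved the median log2 change of all genes from −0.03 to −0.16 and the share of lower genes among those meeting the criterion from 55.1% to 71.0%, and the same 3 members met it. After Benjamini-Hochberg adjustment, 1 of 15257 genes (0.00655%) reached an adjusted p of 0.05 or less in edgeR's test and 765 (5.01%) reached 0.1 or less, with no member reaching 0.05 there. Adjusted p-values of the same 3 members were lower in some fits and higher in others. In DESeq2's Wald test, in which 1960 genes reached an adjusted p of 0.05, it was 2.94e-07 for Kit, 5.63e-12 for Kitl and 0.00444 for Pdgfb. With limma-voom it was 0.111 for Kit and 0.108 for both Kitl and Pdgfb, and with a muscle covariate (the mean log2 CPM of skeletal muscle genes added to edgeR's fit) 0.364 for Kit, 0.229 for Kitl and 0.397 for Pdgfb. Adjusted values thus depended on the fit, and each member was read from its unadjusted p in edgeR's test and its per-sample values. Pdgfra, Pdgfrb, Pdgfa, Pdgfc and Pdgfd did not meet the criterion, and their groups overlapped. In bulk tissue, fewer cells of a type and less RNA per cell cannot be told apart, and this holds for every gene below.

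**Figure D1:**
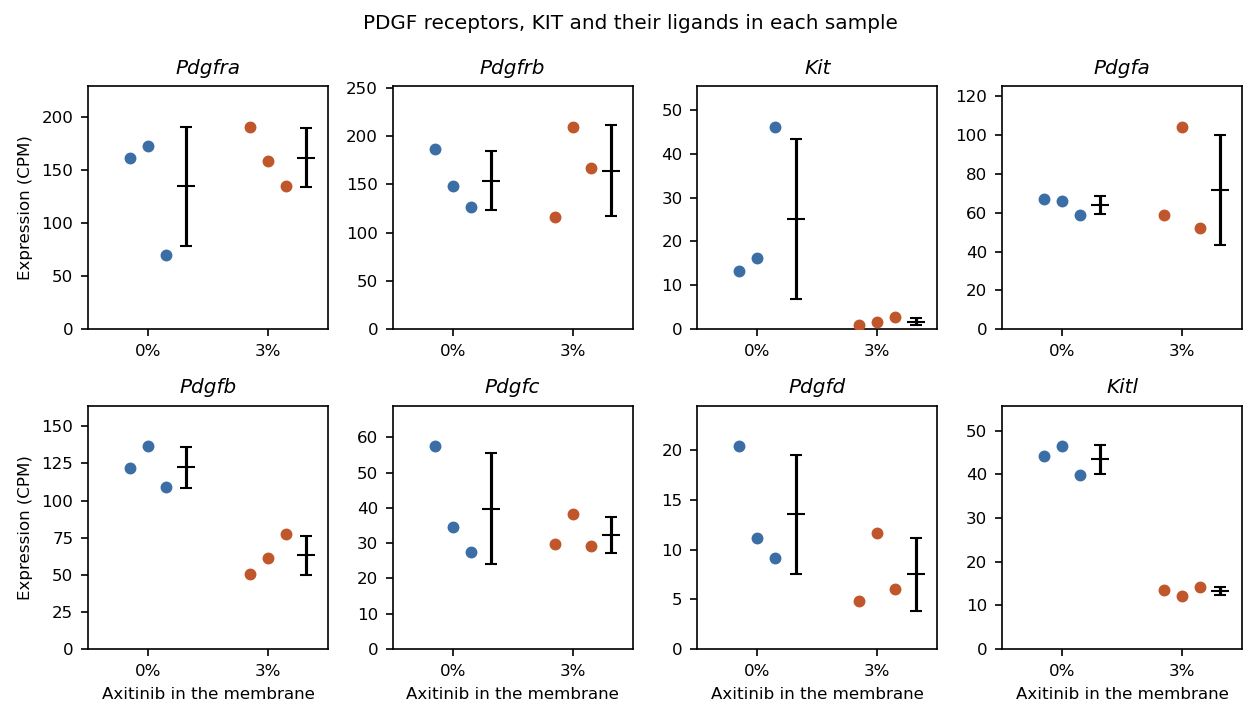
Expression of the 8 members in each sample (y axis, CPM from 0; x axis, axitinib in the membrane). Points are the 3 samples of a group, and black bars give the mean and SD; for Kit, Kitl and Pdgfb every 3%-Axitinib sample lies below every 0%-Axitinib sample, while the groups of the other members overlap.

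Among the receptors, Kit was the member that differed most. It stood at 13.2, 16.2 and 46.2 CPM in replicates 1, 2 and 3 of the 0%-Axitinib group and at 0.990, 1.55 and 2.72 CPM in those of the 3%-Axitinib group. The groups were far apart, and the replicate of the 0%-Axitinib group rich in blood precursor genes was also the highest for Kit. The 3%-Axitinib values rested on 9, 17 and 47 reads, all above the limit of detection. The mean was 25.2 ± 18.2 CPM in the 0%-Axitinib group and 1.75 ± 0.884 CPM in the 3%-Axitinib group (SD, n = 3 each). Kit fell by 3.81 on the log2 scale (SE 0.64), which is 14.0-fold lower with a 95% interval of 4.89 to 40.0. Its unadjusted p in edgeR's quasi-likelihood test was 5.8e-04, and its Benjamini-Hochberg adjusted p was 0.0965, with 3 of 3 samples lower. Without replicate 3 of the 0%-Axitinib group the log2 change was −3.02 and Kit still met the criterion. With both 3%-Axitinib samples rich in muscle genes left out, an alternative chosen after seeing the data that leaves 1 sample with axitinib, the change was −4.01.

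Pdgfra, which encodes a receptor for the PDGF-A, PDGF-B and PDGF-C chains, stood at 161, 172 and 70.3 CPM in the 0%-Axitinib group and at 191, 158 and 135 CPM in the 3%-Axitinib group. The single low value was that of 0%-Axitinib replicate 3, and the other 5 samples overlapped. Group means were 134 ± 55.8 and 161 ± 27.9 CPM (SD, n = 3 each). The log2 change was 0.26 with a 95% interval of −0.59 to 1.11 (edgeR's quasi-likelihood test, Benjamini-Hochberg adjusted p = 0.680). Without 0%-Axitinib replicate 3 the estimate turned to −0.05, so that no direction can be given.

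Pdgfrb, whose product binds PDGF-B and PDGF-D, stood at 186, 149 and 127 CPM in the 0%-Axitinib group and at 116, 210 and 167 CPM in the 3%-Axitinib group. Both the lowest and the highest sample belonged to the 3%-Axitinib group, and the 0%-Axitinib samples lay between them. Group means were 154 ± 30.2 and 164 ± 46.8 CPM (SD, n = 3 each). The log2 change was 0.09 with a 95% interval of −0.57 to 0.76 (edgeR's quasi-likelihood test, Benjamini-Hochberg adjusted p = 0.862). Scaling by total counts turned it to −0.05, and leaving out 0%-Axitinib replicate 3 or 3%-Axitinib replicate 2 turned it to −0.032 or −0.12. For both PDGF receptors the interval still holds changes of more than 1.5-fold, so a change of that size was not resolved with these samples.

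Pdgfra and Kit are neighbours on mouse chromosome 5, and Kdr, which encodes VEGF receptor 2, the chief target of axitinib, follows Kit. In the GRCm38 build with GENCODE gene models, Pdgfra spans positions 75152292 to 75198215 and Kit spans 75574916 to 75656722, both on the plus strand. Kdr spans 75932827 to 75978458 on the minus strand. The gaps are 376.7 kb between Pdgfra and Kit and 276.1 kb between Kit and Kdr, with 0 protein-coding genes annotated in either. Kdr stood at 32.2, 31.9 and 56.6 CPM in the 0%-Axitinib group and at 4.40, 11.1 and 11.3 CPM in the 3%-Axitinib group. The groups did not overlap, and Kdr fell by 2.16 on the log2 scale (SE 0.43; edgeR's quasi-likelihood test, Benjamini-Hochberg adjusted p = 0.0965). Of these 3 adjacent receptor genes, Kit and Kdr thus fell, and Pdgfra did not meet the criterion. Whether the changes of the 3 genes differ from each other was not tested.

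**Figure D2:**
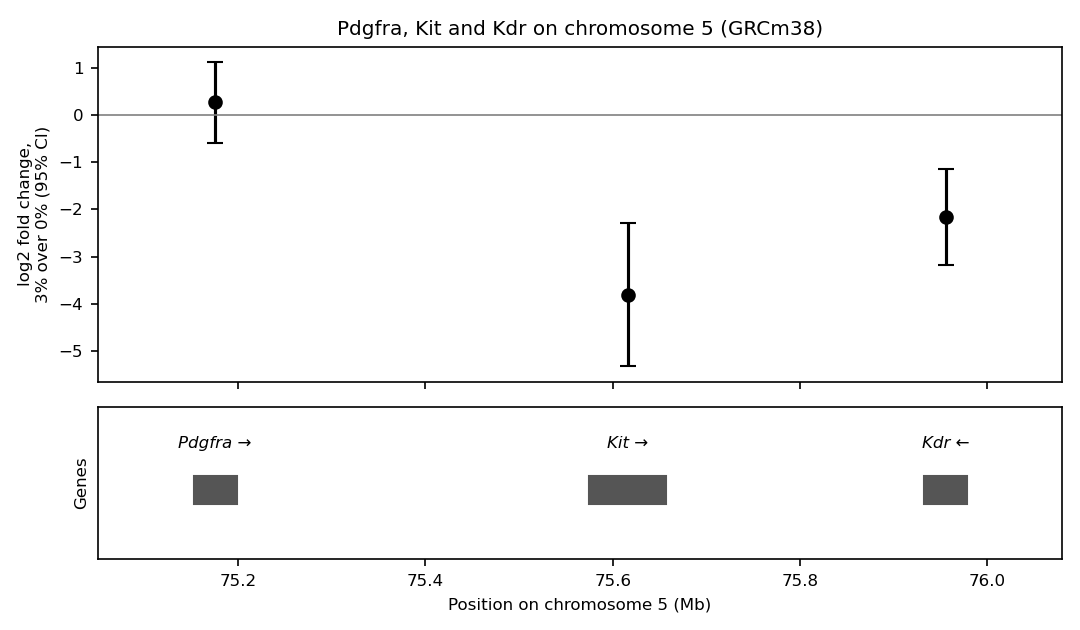
Positions of Pdgfra, Kit and Kdr on chromosome 5 (x axis, Mb, GRCm38; arrows give the strand) with the log2 fold change of each, 3%-Axitinib over 0%-Axitinib, and its 95% interval (y axis). Kit (−3.81) and Kdr (−2.16) lie below 0 with their whole intervals, and the interval of Pdgfra runs from −0.59 to 1.11.

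The promoters of these 3 adjacent genes are printed because 2 of them fell and 1 did not meet the criterion. Promoter sequences were taken from RefSeq (GRCm38.p6), which held an entry for 6 of the 8 members and for Kdr. Pdgfb and Pdgfrb were named only. Each sequence runs 5′ to 3′ on the strand of its gene and covers up to 250 bases before the RefSeq start, without any base inside a GENCODE transcript. Pdgfra is at chr5:75152001-75152250 (plus strand), Kit at chr5:75574737-75574915 (plus strand) and Kdr at chr5:75978459-75978705 (minus strand). Capitals mark matches to any of 5 motifs searched on both strands, and no match overlaps another.
Pdgfra: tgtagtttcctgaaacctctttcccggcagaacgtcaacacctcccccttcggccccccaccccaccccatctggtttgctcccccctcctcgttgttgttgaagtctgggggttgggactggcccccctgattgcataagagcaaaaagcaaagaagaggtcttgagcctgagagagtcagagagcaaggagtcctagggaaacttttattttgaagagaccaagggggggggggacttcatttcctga
Kit: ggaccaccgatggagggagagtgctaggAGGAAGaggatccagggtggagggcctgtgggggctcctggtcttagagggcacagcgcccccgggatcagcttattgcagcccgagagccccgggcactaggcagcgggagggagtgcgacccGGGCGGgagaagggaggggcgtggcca
Kdr: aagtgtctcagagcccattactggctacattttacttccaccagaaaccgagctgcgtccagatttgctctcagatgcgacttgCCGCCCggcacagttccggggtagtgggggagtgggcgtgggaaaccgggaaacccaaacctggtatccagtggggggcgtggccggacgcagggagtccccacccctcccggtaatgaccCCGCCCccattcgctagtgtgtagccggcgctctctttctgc
The GC box, spelled GGGCGG, occurred 1 time before Kit, 2 times before Kdr (as its reverse complement) and 0 times before Pdgfra, and 32.7% of 32851 promoters of 250 bases held it. The ETS core, spelled AGGAAG, occurred 1 time before Kit and 0 times before Kdr and Pdgfra, against 29.5% of all promoters. The site of the GATA factors, spelled AGATAA, was in none of the 3 windows and in 9.99% of all promoters. The core of the hypoxia element, spelled ACGTG, was in none of them either, against 16.6% of all promoters. For the box of the TATA-binding protein, spelled TATAAA, the same held, against 12.4%. For the other members with an entry, the whole window of 250 bases before the RefSeq start was searched. That of Kitl lies partly, and those of Pdgfa wholly, inside the annotated gene. Among these members, the GC box occurred 3 times before Kitl, 1 and 2 times before the 2 RefSeq starts of Pdgfa, and 0 times before Pdgfc and Pdgfd. Among members with an entry, it was thus found before Kit and Kitl, which met the criterion, and before Pdgfa, which did not. Whether its presence goes with meeting the criterion was not tested. TATAAA occurred 1 time each before Kitl and Pdgfd. AGATAA occurred 1 time before Pdgfd, and AGGAAG occurred 1 time before 1 of the 2 RefSeq starts of Pdgfa. The GC content of the 250-base window was 54.4% for Pdgfra, 70.8% for Kit and 61.6% for Kdr, and the mean over all promoters was 53.2%. These matches describe letters, and no binding was measured.

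Kitl encodes stem cell factor, the ligand of KIT. It stood at 44.1, 46.4 and 39.8 CPM in the 0%-Axitinib group and at 13.5, 12.2 and 14.2 CPM in the 3%-Axitinib group. The samples within each group were close together, and the groups were well separated. Group means were 43.4 ± 3.35 and 13.3 ± 1.01 CPM (SD, n = 3 each). Kitl fell by 1.71 on the log2 scale (SE 0.18), a level 3.26-fold lower with a 95% interval of 2.41 to 4.41. The unadjusted p in edgeR's quasi-likelihood test was 3.5e-05 and the Benjamini-Hochberg adjusted p was 0.0965, with 3 of 3 samples lower. Leaving out any single sample kept the log2 change between −1.77 and −1.65. Kitl lies on chromosome 10 at 100015630 to 100100416 and shares no position with another annotated gene, and the same holds for Kit on its chromosome.

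Pdgfb encodes the B chain of PDGF, which binds PDGFRβ and recruits pericytes. It stood at 122, 136 and 109 CPM in the 0%-Axitinib group and at 50.6, 61.2 and 77.2 CPM in the 3%-Axitinib group. All 3 samples with axitinib were below all 3 without it, with a narrower gap than for Kitl. Group means were 122 ± 13.8 and 63.0 ± 13.4 CPM (SD, n = 3 each). Pdgfb fell by 0.96 on the log2 scale (SE 0.22), a level 1.94-fold lower with a 95% interval of 1.35 to 2.78. The unadjusted p in edgeR's quasi-likelihood test was 0.00337 and the Benjamini-Hochberg adjusted p was 0.0973, with 3 of 3 samples lower. Leaving out any single sample kept the log2 change between −1.13 and −0.82.

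The other PDGF ligands did not meet the criterion. Pdgfa, whose A chain binds PDGFRα, stood at 66.8, 66.0 and 58.6 CPM in the 0%-Axitinib group and at 58.8, 104 and 52.1 CPM in the 3%-Axitinib group. A single sample, 3%-Axitinib replicate 2, was high, and the other samples overlapped. The log2 change was 0.17 (95% interval −0.51 to 0.84), and it was −0.20 without that sample. Pdgfc, whose product is secreted in a latent form that proteases activate, stood at 57.4, 34.5 and 27.4 CPM and at 29.7, 38.3 and 29.3 CPM. Here 0%-Axitinib replicate 1 was the high sample. The log2 change was −0.29 (95% interval −1.01 to 0.42), and it was 0.07 without that sample.

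Pdgfd, which encodes a latent ligand of PDGFRβ, stood at 20.4, 11.1 and 9.13 CPM in the 0%-Axitinib group and at 4.84, 11.7 and 6.02 CPM in the 3%-Axitinib group. Replicate 2 of the 3%-Axitinib group lay among the 0%-Axitinib samples, and the other 2 lay below them. The log2 change was −0.85 (SE 0.46, 95% interval −1.94 to 0.24; edgeR's quasi-likelihood test, Benjamini-Hochberg adjusted p = 0.300). Without 3%-Axitinib replicate 2 the change was −1.32 and met the criterion, and without 0%-Axitinib replicate 1 it was −0.44. With both muscle-rich 3%-Axitinib samples left out it was −0.23, so whether Pdgfd met the criterion depended on the samples counted.

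Pdgfa, Pdgfb, Pdgfc, Pdgfd and Pdgfra overlap other annotated genes, and whether reads were counted by strand is not given in the sources used here. The antisense genes are 6330403L08Rik at Pdgfa, Gm41361 at Pdgfb, Gm16000 at Pdgfc and Gm42802 at Pdgfra, and Ddi1 is a coding gene on the strand opposite to Pdgfd. Without strand, reads from any exon stretch that both genes of a pair share cannot be told apart. The members lie on 6 chromosomes: Pdgfra, Kit and Pdgfa (138976014 to 138997370) on chromosome 5, Pdgfc on chromosome 3 (81036416 to 81214040), Pdgfd on chromosome 9 (6168584 to 6378850), Kitl on chromosome 10, Pdgfb on chromosome 15 (79995874 to 80014977) and Pdgfrb on chromosome 18 (61045150 to 61085061).

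Levels of different genes were compared per kb of annotated exon. In the 0%-Axitinib group the highest level was that of Pdgfb at 29.4 ± 3.31 CPM per kb, followed by Pdgfrb at 28.1 ± 5.51, and the samples of these neighbours overlapped. Pdgfa (20.5 ± 1.46 CPM per kb) and Pdgfra (13.4 ± 5.57 CPM per kb) came next and were separate from each other and from Pdgfrb. Pdgfra overlapped Pdgfc (7.81 ± 3.09 CPM per kb), and Pdgfc overlapped Kitl (7.35 ± 0.567 CPM per kb). Pdgfd (4.29 ± 1.90 CPM per kb) and Kit (2.83 ± 2.05 CPM per kb) were lowest and overlapped each other. In the 3%-Axitinib group Pdgfrb led with 30.0 ± 8.55 CPM per kb, followed by Pdgfa (23.0 ± 9.11), Pdgfra (16.1 ± 2.79) and Pdgfb (15.1 ± 3.22), each overlapping the next in CPM per kb. Pdgfc (6.37 ± 0.996 CPM per kb) was separate from both of its neighbours. Pdgfd (2.38 ± 1.16 CPM per kb) overlapped Kitl (2.25 ± 0.170 CPM per kb), and Kit was lowest at 0.197 ± 0.0992 CPM per kb. In this order Pdgfb moved from place 1 without axitinib to place 4 with it.

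Ratios taken within a library do not depend on how libraries are scaled. The log2 ratio of Pdgfb to Pdgfrb was −0.61, −0.12 and −0.22 in the 0%-Axitinib samples and −1.20, −1.78 and −1.11 in the 3%-Axitinib samples. The ligand was lower beside its receptor in all 3 samples with axitinib, by a mean difference of −1.04. The log2 ratio of Kitl to Kit was 1.74, 1.52 and −0.21 in the 0%-Axitinib samples and 3.70, 2.94 and 2.37 in the 3%-Axitinib samples. Both genes fell, and Kit fell further, so the ratio was higher by a mean of 1.99 in the 3%-Axitinib group. That difference was 1.37 without 0%-Axitinib replicate 3, the library rich in blood precursor genes, and 2.35 without 0%-Axitinib replicate 1. The log2 ratio of Pdgfd to Pdgfrb was lower by a mean of −0.93 in the 3%-Axitinib group, again with no overlap. Each of these 3 ratios gave p = 0.1 in a two-sided exact permutation test, the smallest p that 3 against 3 samples allow, and 0.333 after Benjamini-Hochberg adjustment over the 10 ratios computed. The test could therefore not have reached 0.05 for any ratio, and the ratios are given as descriptions. For Pdgfra to Pdgfrb (a mean difference of 0.29), Pdgfa to Pdgfra (−0.25) and Pdgfc to Pdgfra (−0.59) the groups overlapped.

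Members were also set beside the mean log2 CPM of markers of the cells in which they are best known. Kit was lower relative to the mast cell list by a mean of −0.60 on the log2 scale, Pdgfra relative to the fibroblast list by −0.60, while Pdgfb was higher relative to the endothelial list by 0.62 and Pdgfrb relative to the pericyte and smooth muscle list by 0.53. The groups overlapped for all 4, and as above the exact permutation test could not have reached 0.05. The mast cell list holds 5 genes that passed the filter on low counts only through the 0%-Axitinib samples. Its level with axitinib therefore depends in part on the filter and the pseudocount. With a pseudocount of 2 instead of 0.5, the difference for Kit was −0.87. Single libraries moved these differences. With single samples left out, the difference ran from −0.87 to −0.28 for Kit to the mast cell list and from −0.84 to −0.25 for Pdgfra to the fibroblast list. It ran from 0.32 to 0.98 for Pdgfb to the endothelial list and from 0.37 to 0.82 for Pdgfrb to the pericyte and smooth muscle list.

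**Figure D3:**
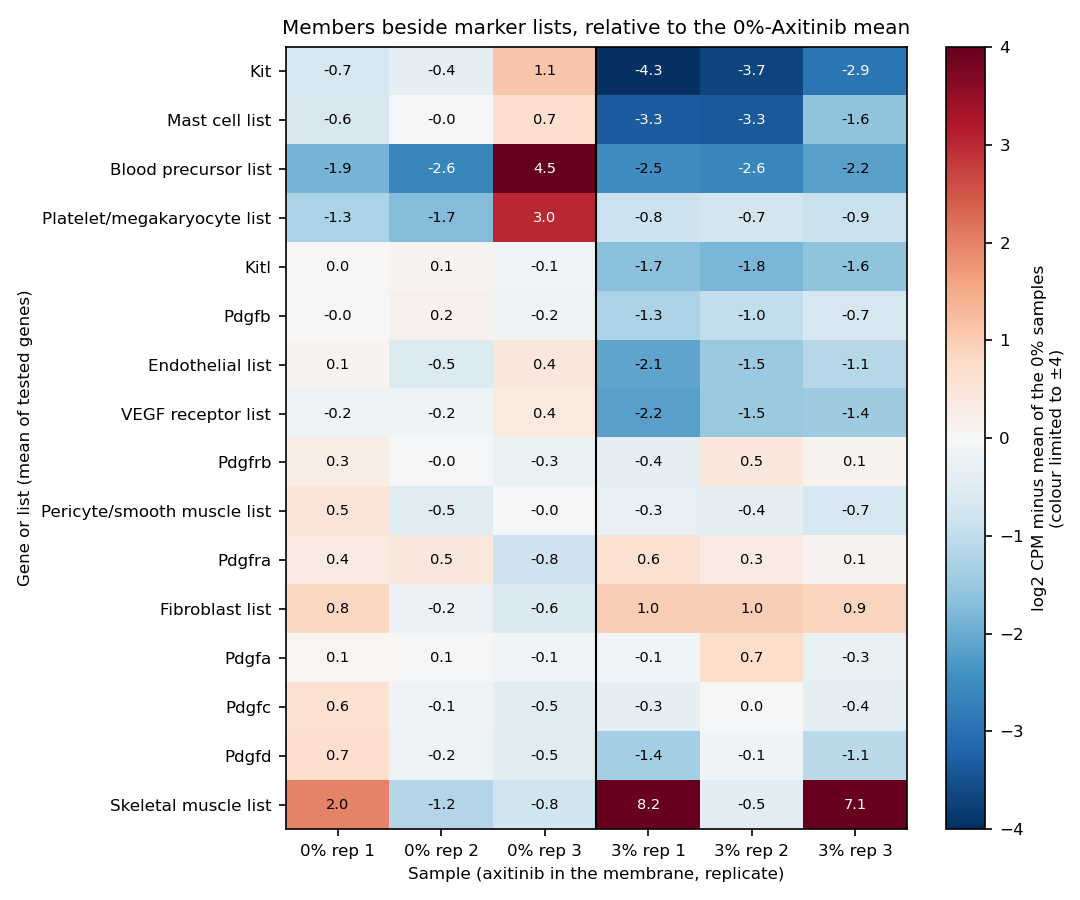
Log2 CPM of members and mean log2 CPM of marker lists in each sample (columns), relative to the mean of the 3 samples of the 0%-Axitinib group (colour limited to ±4, the value printed in each cell). Kit, Kitl, Pdgfb and the mast cell, endothelial and VEGF receptor lists are all low in the 3%-Axitinib samples. These samples are the whole group with axitinib, so the shared low values do not tie a gene to a cell type.

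Mast cells express Kit throughout life, and their markers moved in the same direction. All 12 listed mast cell genes were lower by the criterion, with a median log2 change of −2.89 against −0.03 over all genes tested, and 11 of the 12 did not overlap. The filter on low counts asks for 0.580 CPM in 3 samples, and 5 of the 12 (Mcpt4, Fcer1a, Ms4a2, Mrgprb1 and Mrgprb2) met it in all 3 samples without axitinib but in fewer than 3 with it. They were kept because they are high in the 0%-Axitinib group, so their being lower is in part set by the filter. A filter of 10 reads in every sample removes these 5, and the 7 genes left were all lower, with a median of −2.33. The summed level of the 12 was 130, 201 and 317 CPM in replicates 1, 2 and 3 without axitinib and 18.7, 16.2 and 76.0 CPM in those with it. The most abundant, the tryptase gene Tpsab1, changed by −1.90 on the log2 scale. The largest change was that of the receptor gene Mrgprb2 (−4.56), which was at 0 in replicates 1 and 2 of the 3%-Axitinib group and under the limit of detection in replicate 3, so its fitted size is uncertain. Fcer1a and Mrgprb1 were at 0 in 3%-Axitinib replicate 1. The count of lower mast cell genes was 6 of 12 without 3%-Axitinib replicate 2, 7 without 3%-Axitinib replicate 1, 5 with the muscle covariate and 7 with both muscle-rich samples left out. How far mast cells account for the change in Kit was not tested.

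Melanocytes and blood progenitors also carry KIT. Of 6 melanocyte genes, 3 passed the filter and 1 was lower, Mlana with −2.25 (kept by the filter through the 0%-Axitinib samples), while Tyr, Tyrp1 and Dct were at or under the limit of detection in nearly every sample and Mitf, the most abundant, did not meet the criterion (−0.47). Without 0%-Axitinib replicate 3, 2 melanocyte genes were lower. The summed level of the 6 was 79.4, 112 and 43.3 CPM in replicates 1, 2 and 3 without axitinib and 61.4, 46.8 and 58.1 CPM in those with it. The blood precursor genes that set 0%-Axitinib replicate 3 apart were Mpo above all, at 1244 CPM there against 0.679 and 0 CPM in replicates 1 and 2 and 1.54, 1.37 and 0.753 CPM in the 3%-Axitinib samples. Of the 7, 4 were tested and 4 were lower (median −5.01), but 1 was lower in DESeq2's Wald test, 1 with limma-voom, 1 with the muscle covariate and 2 with the replicate block. The median was −0.13 without that replicate, and 1 gene was lower without that replicate or any one of the 3%-Axitinib samples. The platelet and megakaryocyte list followed the same library, with summed levels of 110, 55.9 and 851 CPM and of 173, 237 and 169 CPM. Of its 4 tested genes 1 was lower, Ppbp with −5.33, and the median of −2.38 turned to 0.68 without 0%-Axitinib replicate 3. The count of lower genes was 3 without 0%-Axitinib replicate 1 or 2 and 0 without any other sample. Pf4 was its most abundant gene.

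Endothelial cells are a main source of PDGF-B and also express Kitl. All 12 endothelial genes were lower by the criterion (median −1.57), and 11 of them did not overlap. Their summed level was 864, 548 and 1060 CPM in replicates 1, 2 and 3 without axitinib and 180, 279 and 343 CPM in those with it. Pecam1 was the most abundant (−1.61) and the tight junction gene Cldn5 changed most (−2.38). The number of lower genes was 8 without 3%-Axitinib replicate 2 and 7 with both muscle-rich samples left out. The part of endothelial cells in the lower Pdgfb and Kitl was not tested.

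Of 11 pericyte and smooth muscle genes, among which Pdgfrb is often counted, 5 were lower and none was higher, with a median of −0.07 that turned to 0.12 without 0%-Axitinib replicate 1. The pericyte genes Rgs5 (−2.22, also the most abundant), Abcc9 (−1.89), Mcam (−1.73), Notch3 (−1.66) and Kcnj8 (−1.22) fell. The contractile genes Acta2 (0.53), Tagln (−0.07), Myh11 (1.01) and Cnn1 (1.67) did not meet the criterion, nor did Cspg4 (0.91) or Higd1b (0.05). The summed level was 861, 460 and 642 CPM in replicates 1, 2 and 3 without axitinib and 489, 583 and 362 CPM in those with it. Of 12 fibroblast genes, the cells in which Pdgfra is best known, 4 were higher and none was lower, with a median of 0.87. Col1a1 was the most abundant and changed most (1.79), and Mfap5 (1.43), Fbln1 (1.39) and Thy1 (0.87) also rose. The count of higher fibroblast genes was 1 without 0%-Axitinib replicate 2, 2 without any one of the 3%-Axitinib samples and 2 under scaling by total counts. It was 6 without 0%-Axitinib replicate 1. With single samples left out, the median of the fibroblast genes ran from 0.65 to 1.40. Their summed level was 29419, 14467 and 11536 CPM in replicates 1, 2 and 3 without axitinib and 26899, 73263 and 29449 CPM in those with it.

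The remaining marker lists cover some of the other cells the tissue could hold. None of 10 macrophage genes met the criterion (median 0.01, or −0.12 under scaling by total counts, with Lyz2 most abundant), and 1 was lower without 0%-Axitinib replicate 3. Of 9 tested chondrocyte genes 5 were higher (median 1.34), with Comp most abundant and Acan changing most (3.92), and 3 were higher without 3%-Axitinib replicate 2. Of the 5, Col9a1 passed the filter through the 3%-Axitinib samples alone, and 4 were higher with 10 reads required in every sample. Of 23 tested skeletal muscle genes 21 were higher (median 6.38), led by Mb (8.99), with Acta1 most abundant, but only 3 lay above in all 3%-Axitinib samples, and 5 of the 23 passed the filter through the 3%-Axitinib samples. The number of higher muscle genes was 3 with limma-voom. A filter of 10 reads in every sample left 8 muscle genes, and all 8 were higher. Of 7 Schwann cell genes none met the criterion, although all 7 changes were positive (median 1.19, Pmp22 most abundant) and 4 lay above in all 3%-Axitinib samples. Their summed level was 1739, 688 and 313 CPM in replicates 1, 2 and 3 without axitinib and 2018, 2096 and 1795 CPM in those with it. The number of higher Schwann cell genes was 3 in DESeq2's Wald test, 4 with limma-voom and 5 without 0%-Axitinib replicate 1. The Schwann cell median ran from 0.83 to 2.13 with single samples left out. Of 8 adipocyte genes 2 were lower and 1 was higher (median −1.17), namely Fabp4 (−1.22, most abundant), Lep (−5.58, at most 1 read in any 3%-Axitinib sample) and Plin4 (2.52), and without 3%-Axitinib replicate 1 there were 6 lower and 0 higher. Of the 8 adipocyte genes, 4 (Lep among them) passed the filter through the 0%-Axitinib samples. The adipocyte median ran from −2.91 to −0.67 with single samples left out.

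Proteases cut PDGF chains and membrane-bound stem cell factor from their precursor forms, and matrix proteins and coreceptors bind PDGF or its receptors. Of 13 genes for such processing and binding, 2 were higher and 2 were lower by the criterion, with a median of −0.10 that turned to 0.25 without 3%-Axitinib replicate 1, 0.20 without 0%-Axitinib replicate 2 and 0.13 with limma-voom. These counts are close to the shares over all genes (9.54% higher and 11.7% lower), and the genes below are described one by one. Pcsk5, a proprotein convertase, stood at 16.2, 7.76 and 5.27 CPM in the 0%-Axitinib group and at 70.3, 42.0 and 34.7 CPM in the 3%-Axitinib group. The groups did not overlap, and Pcsk5 rose by 2.33 on the log2 scale (SE 0.48; edgeR's quasi-likelihood test, Benjamini-Hochberg adjusted p = 0.0965). Sparc, a matrix protein that binds PDGF-B and the most abundant gene of the list, rose by 1.60. Plau, whose product urokinase can activate PDGF-D, fell by 1.17, and the sheddase gene Adam10 fell by 0.62. Furin, which processes PDGF-A and PDGF-B, was at 0.34, and Plat, whose product activates PDGF-C, at 0.57 on the log2 scale, and neither met the criterion. The count of higher genes ranged from 1 to 4 when single samples were left out (4 without 0%-Axitinib replicate 1, and 1 without 0%-Axitinib replicate 2, 0%-Axitinib replicate 3 or 3%-Axitinib replicate 2), and the count of lower genes was 1 without 0%-Axitinib replicate 2 or 3%-Axitinib replicate 1.

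Inside the cell, both receptor families signal through shared adaptors, lipid kinases, RAS and STAT proteins. Of 38 such relay genes, 11 were lower and 1 was higher, against shares of 11.7% lower and 9.54% higher over all genes. Their median log2 change was −0.40 against −0.03 over all genes. With single samples left out, the count of lower relay genes ran from 9 to 14. Cbl, a ubiquitin ligase that takes activated receptors to degradation, stood at 124, 197 and 133 CPM in the 0%-Axitinib group and at 61.1, 56.8 and 70.3 CPM in the 3%-Axitinib group. No sample overlapped, and Cbl fell by 1.27 (SE 0.24; edgeR's quasi-likelihood test, Benjamini-Hochberg adjusted p = 0.0965). The other lower genes were Pik3cd (−1.25), Rasa1 (−1.11), the SRC family kinase gene Lyn (−1.08), Crkl (−1.06), Sos2 (−0.95), the phosphatase gene Ptpn6 (−0.94), Stat5b (−0.73), Nck1 (−0.70), Nck2 (−0.66) and Crk (−0.61). Pik3cd, Lyn and Ptpn6 are mainly genes of blood cells. Hras rose by 0.59, but no longer met the criterion in DESeq2's Wald test, under scaling by DESeq2 size factors or by total counts, without the filter or with 10 reads required in every sample, with the muscle covariate, with both muscle-rich samples left out, or without replicate 1 or 2 of the 0%-Axitinib group or replicate 1 or 3 of the 3%-Axitinib group. Mapk3, the most abundant, did not meet it (−0.26). With both muscle-rich samples left out, 4 relay genes were lower.

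Among genes that respond early to growth factor signals and their feedback inhibitors, the counts were close to the shares over all genes (11.7% lower and 9.54% higher). Of 18 such genes, 2 were lower and 1 was higher, with a median of −0.26 that ran from −0.47 to −0.03 with single samples left out and was −0.03 with limma-voom, and 4 were lower in DESeq2's Wald test or without the filter. Spry4 (−1.43) and Dusp6 (−1.08), feedback inhibitors of the RAS and ERK route, fell. Fosl1, a partner of JUN in AP-1, rose by 1.67. Atf3, the most abundant of the list, was at −0.52, and Egr1 (0.30), Fos (−0.62) and Jun (0.01) also did not meet the criterion. Without 0%-Axitinib replicate 3 there were 4 lower and 2 higher genes, and without 0%-Axitinib replicate 1 there were 2 higher genes.

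The class III relatives served as a comparison. Flt3, the receptor of dendritic cell and blood progenitors, stood at 1.98, 2.92 and 7.82 CPM in the 0%-Axitinib group and at 0.660, 0.729 and 0.521 CPM in the 3%-Axitinib group. The groups did not overlap, although the filter kept Flt3 through its 0%-Axitinib samples, and Flt3 fell by 2.73 (SE 0.63; edgeR's quasi-likelihood test, Benjamini-Hochberg adjusted p = 0.0973). Csf1r, the most abundant and a macrophage receptor, was at −0.20, and its ligand genes Csf1 (0.36) and Il34 (0.23) did not meet the criterion either, although 2 relatives were higher without 0%-Axitinib replicate 1. The ligand gene Flt3l was listed at 0 in all 6 samples. The median of the 4 tested relatives was 0.02, and it was −0.12 under scaling by total counts. All 3 VEGF receptor genes were lower (median −1.83), with Flt1 at −1.22 as the most abundant, Kdr at −2.16 and the lymphatic receptor gene Flt4 at −1.83, and the groups did not overlap for any of the 3. Among all 5 class III receptor genes, Kit fell, while Pdgfra, Pdgfrb and Csf1r did not meet the criterion. Flt3 also met it as lower, but its being lower is in part set by the filter.

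For each receptor the genes with the most similar pattern over the 6 samples were sought among 11548 genes with a mean of at least 5 CPM. The 6 points share group, library depth and tissue makeup, so the likeness is only a description. Pitpnb (Pearson r = 0.996), Cpeb1 (r = 0.994) and Aldh6a1 (r = 0.986) were most like Pdgfra. Fbxl12 (r = 0.987), Ano1 (r = 0.967) and Pcdh18 (r = 0.963) were most like Pdgfrb. Fam102a (r = 0.996), Etaa1 (r = 0.995) and Cd4 (r = 0.995) were most like Kit. Of these, Cd4 also covered a range close to that of Kit, with 6.06, 8.63 and 24.2 CPM in replicates 1, 2 and 3 without axitinib and 0.660, 0.820 and 1.16 CPM in those with it. Fam102a kept within a narrow range, from 75.6 to 92.6 CPM.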

How the data were processed

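RNA of 6 samples (3 of each group) was sequenced by the authors on an Illumina instrument after poly(A) selection, filtered with fastp and mapped to mm10/GRCm38 with STAR, for which the submitters' processing notes give version 2.5.2b. The authors deposited raw read counts per gene, and lines without a gene (unmapped, multimapping, no feature, ambiguous) entered neither the library sizes nor any test. STAR left 3.84% to 48.4% of a library's reads unmapped. Counts were fitted here in R 4.3.3 with edgeR 4.0.16 (quasi-likelihood test) after filterByExpr (minimum count 10, minimum total 15) and TMM scaling, and p-values were adjusted over all genes by Benjamini-Hochberg. CPM uses the TMM-scaled library size. Log2 ratios within a library used a pseudocount of 0.5. Alternatives were DESeq2 1.42.0 size factors and Wald test, limma-voom (limma 3.58.1), total counts, TMM without muscle genes, other filters, a replicate block, a muscle covariate, a 2-fold threshold, a pseudocount of 2 and each sample left out. Gene positions and exon lengths came from GENCODE (GRCm38) and promoters from RefSeq (GRCm38.p6). Figures were drawn with matplotlib 3.10.9.

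Named are all 8 members, the 3 genes most like each receptor by Pearson r, the VEGF receptors and class III relatives, and of each list the most abundant gene and those with the largest change in each direction that met the criterion. Other list genes named were chosen after their values were seen. The members and lists were chosen with earlier results of these data known. The chondrocyte gene Cnmd was not analysed here. Of the listed genes, 2 are not reported here. Intervals and limits of detection cover counting error or the spread between samples only.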

Additional observations from a re-analysis of the deposited data

Results flagged for a closer look

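Reads that STAR did not map, which no comparison uses, made up more of the libraries with axitinib. Their mean share was 31.5% ± 15.9 for the 3%-Axitinib group, against 8.08% ± 5.99 for the 0%-Axitinib group (SD, n = 3 each). The lowest 3%-Axitinib sample (16.8%) lay above the highest 0%-Axitinib sample (14.9%). The source of these reads was not tested, and their part in the levels of the 8 members was not tested.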

How the results depend on the processing

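Kit, Kitl and Pdgfb met the criterion as lower under every scaling, test, filter, covariate and left-out sample tried, except that a filter of 10 reads in every sample removed Kit (9 reads in 3%-Axitinib replicate 1), leaving 7 members, and that Pdgfb (1.94-fold lower) missed a threshold of 2-fold. The other members changed direction or side of the criterion as follows, and the cause was not tested. Under total counts Pdgfrb was at −0.046. Over single samples left out the log2 change ranged from −0.049 to 0.47 for Pdgfra, from −0.12 to 0.29 for Pdgfrb, from −0.20 to 0.35 for Pdgfa, from −0.51 to 0.065 for Pdgfc and from −1.32 to −0.44 for Pdgfd. Over single samples left out, the lowest adjusted p was 0.038 for Kit and Kitl and 0.045 for Pdgfb, and the highest 0.28 for each, and without the filter it was 0.0446 for Kitl. The log2 ratio differences ranged from 1.37 to 2.35 for Kitl to Kit, from −1.19 to −0.83 for Pdgfb to Pdgfrb, from −1.10 to −0.74 for Pdgfd to Pdgfrb, from −0.89 to −0.40 for Pdgfc to Pdgfra, from −0.57 to 0.10 for Pdgfa to Pdgfra and from −0.071 to 0.53 for Pdgfra to Pdgfrb. With 0%-Axitinib sample 3 and 3%-Axitinib sample 2 both left out, chosen after seeing the data, the log2 changes were −0.031 for Pdgfra, −0.24 for Pdgfrb, −0.26 for Pdgfa and −1.53 for Pdgfd, which then met the criterion. Of all genes, 1951 met a 2-fold threshold, 1740 met the criterion with the muscle covariate, and 1166 met it with both muscle-rich samples left out, which leaves 1 sample with axitinib, assumed to vary like the others. An adjusted p of 0.05 or less was reached by 1 gene in edgeR's test, 1960 with DESeq2's Wald test, 2 with limma-voom, 15 without the filter, 0 with the muscle covariate, 0 with both muscle-rich samples left out, 1572 with 0%-Axitinib sample 3 and 3%-Axitinib sample 2 left out, and between 0 and 1252 over single samples left out. In edgeR's test 3585 genes had an unadjusted p of 0.05 or less. The labels do not say whether equal replicate numbers pair the samples, and the main fit treated them as unpaired. Same-numbered samples deviated with correlations of 0.18, −0.12 and −0.17, and differently numbered ones with −0.22 to 0.21. Such values cannot settle whether the samples were paired. With the replicate number as a block, 2 genes reached an adjusted p of 0.05, 2603 met the criterion, and no member changed its side of it.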
